A study of Rattus norvegicus with 12 samples.

Results

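The genes described here were Sqstm1, with the probes of each of its RefSeq transcripts kept apart, and 9 further genes of autophagy: Nbr1, Optn, Map1lc3b, Gabarapl1, Wipi1, Ulk1, Becn1, Tfeb and Lamp2. They were chosen by symbol for their place in autophagy with the response to GR24 in view, and the Sqstm1 probes were separated because they responded to GR24 by different amounts. The 10 genes are among 16581 named genes on the array and had 19 of its 21109 named probes. All 19 probes were well above background on all 12 arrays, so no gene was lost to the filter on dim probes.

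Rat L6 myotubes were exposed for 24 h to 60 µM GR24, 60 µM pinosylvin or 60 µM resveratrol in DMSO, or to DMSO alone (control), and total RNA of each culture was measured on an Agilent 1-colour array. Each group had 3 arrays, from independent experiments with 1 batch of cells. L6 is an established line of rat skeletal muscle cells that fuse into myotubes in low serum. The length of differentiation before treatment is left out here, since the sources for it differ. GR24 is a synthetic analogue of the strigolactones, a class of plant hormones, and pinosylvin and resveratrol are plant stilbenes that differ by a further hydroxyl group on resveratrol, on the ring that is unsubstituted in pinosylvin. Replicates 1 and 2 were hybridised on 1 slide and replicate 3 on another, with every group on each slide. Between 58.0% and 64.3% of the 58717 spots of an array were well above background, no spot was saturated, and the number of arrays limits the precision of every value below.

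Autophagy encloses cytoplasm in a double membrane, the autophagosome, and delivers it to the lysosome for breakdown. The product of Sqstm1, the cargo receptor p62, binds ubiquitinated cargo and lipidated proteins of the ATG8 family on the growing membrane, and it also binds KEAP1, the adaptor that marks the transcription factor NRF2 for degradation. In skeletal muscle the pathway turns over proteins and organelles, and its genes are partly under the control of FOXO3 and TFEB.

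The label of the cells was checked against 12 myotube markers. Ttn had no probe and 11 were tested. Their mean log2 intensity, relative to the 75th percentile of the array, was 4.04, 4.08 and 3.95 in control, 2.10, 2.01 and 2.19 with GR24, 4.32, 4.28 and 4.21 with pinosylvin and 3.66, 3.67 and 3.62 with resveratrol. The GR24 arrays were the lowest, the pinosylvin arrays the highest, and no groups overlapped. With GR24, 9 of 11 markers were lower than in control, with a median log2 fold change of -1.05. Myog fell by 5.83 and Acta1 fell by 3.88 on the log2 scale. Myod1 was not well above background on any GR24 array, so the size of its fall is not given. It is still counted among the 9 lower markers, and its values enter the mean and the median. With resveratrol 6 of 11 were lower and with pinosylvin 3 of 11 were higher, and with the replicate numbers as a block these were 8 and 6. Among 8 markers of other cell types, Ptprc, Epcam, Krt18 and Adipoq were not well above background on any array, and Pecam1 was on 5 arrays. Of the 3 tested, Cd68, which encodes a lysosomal protein as well as a leukocyte marker, was higher with GR24 by 2.67, Cdh5 did not pass the threshold but was lower with GR24 and with resveratrol once the replicate block was used, and Tubb3 was lower with each compound, by a log2 fold change of -0.86 with GR24, -0.90 with pinosylvin and -0.82 with resveratrol. The part of these shifts in the values below was not tested, and in bulk RNA fewer cells of a type and less RNA per cell cannot be told apart.

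Sqstm1 had 1 probe designed to RefSeq transcript NM_181550 and 2 probes designed to NM_175843. RefSeq lists 5 transcripts of the gene, and which others each probe also measures was not examined. The log2 intensity of the NM_181550 probe, relative to the 75th percentile of the array as for all log2 intensities below, was 2.26, 2.27 and 2.17 in control and 5.75, 5.84 and 5.58 with GR24. It was 2.10, 2.00 and 2.04 with pinosylvin and 2.29, 2.24 and 2.19 with resveratrol. The 3 GR24 arrays stood far above the other 9, the pinosylvin arrays were the lowest without overlap with any other group, and the resveratrol and control arrays overlapped.

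The 2 probes designed to NM_175843 gave another order of groups. Probe 1 read 5.36, 5.41 and 5.31 in control, 6.31, 6.23 and 6.38 with GR24, 5.79, 5.86 and 5.97 with pinosylvin, and 6.17, 6.11 and 6.07 with resveratrol. Probe 2 read 3.31, 3.20 and 2.99 in control, 4.50, 4.33 and 4.30 with GR24, 3.73, 3.81 and 3.61 with pinosylvin, and 4.23, 4.12 and 3.95 with resveratrol. On both probes the order was control, pinosylvin, resveratrol and GR24 from lowest to highest, and no 2 groups overlapped.

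With GR24, the contrast that the choice of genes used and that therefore carries no test, the NM_181550 probe was higher than in control by 3.49 on the log2 scale (SE 0.0751), which is 11.3-fold. Probes 1 and 2 of NM_175843 were higher by 0.95 (SE 0.0684, 1.93-fold) and 1.21 (SE 0.106, 2.32-fold). On slide 1 alone the 3 changes were 3.53, 0.88 and 1.16, and on slide 2, with 1 array per group, 3.42, 1.07 and 1.32. All 3 probes thus rose with GR24 on both slides, the NM_181550 probe by most.

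The stilbenes were tested with limma across all 24279 probes that passed the filter, with p adjusted over all of them and a threshold of 0.05. Probe 1 of NM_175843 was higher with pinosylvin by 0.51 (SE 0.0684, adjusted p 0.000576, higher on 3 of 3 arrays) and with resveratrol by 0.76 (SE 0.0684, adjusted p 6.14e-05). Probe 2 was higher with pinosylvin by 0.56 (SE 0.106, adjusted p 0.00526) and with resveratrol by 0.94 (SE 0.106, adjusted p 0.000232). These 4 calls kept their direction and their side of the threshold in all 26 alternatives, with adjusted p of at most 0.0287. The NM_181550 probe changed by -0.19 with pinosylvin (95% interval -0.35 to -0.019, adjusted p 0.126), lower on all 3 arrays without passing the threshold. With the replicate numbers as a block it passed, at an adjusted p of 0.0471, and over 26 alternatives its adjusted p ran from 0.0284 to 0.345. With resveratrol it changed by 0.0081 (95% interval -0.16 to 0.17, adjusted p 0.969).

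Set directly against each other, the stilbenes differed on the NM_175843 probes. Pinosylvin minus resveratrol was -0.24 on probe 1 (SE 0.0684, adjusted p 0.0401) and -0.38 on probe 2 (SE 0.106, adjusted p 0.0379), with the pinosylvin arrays below the resveratrol arrays on both. The calls rested on single arrays, though the sign did not. For probe 1 the adjusted p was 0.0596 without control replicate 1, 0.0642 without GR24 replicate 1, 0.130 without pinosylvin replicate 1 and 0.119 without pinosylvin replicate 2. It was 0.118, 0.0970 and 0.0715 without resveratrol replicates 1, 2 and 3. For probe 2 the adjusted p was 0.0849, 0.0620 and 0.112 without pinosylvin replicates 1, 2 and 3, and 0.118 and 0.106 without resveratrol replicates 1 and 2. It was 0.0502 without control replicate 2 and 0.0512 without GR24 replicate 2. Both calls were also lost with no filter on dim probes (0.147 and 0.113) and with only the 6 arrays compared (0.105 and 0.0638), and that of probe 1 with the percentile over spots (0.0665), an alternative chosen after seeing the data. On the NM_181550 probe the difference was -0.19 (95% interval -0.36 to -0.028, adjusted p 0.118), and with the replicate block the adjusted p was 0.0437, within a range of 0.0325 to 0.294 over 26 alternatives.

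**Figure D1:**
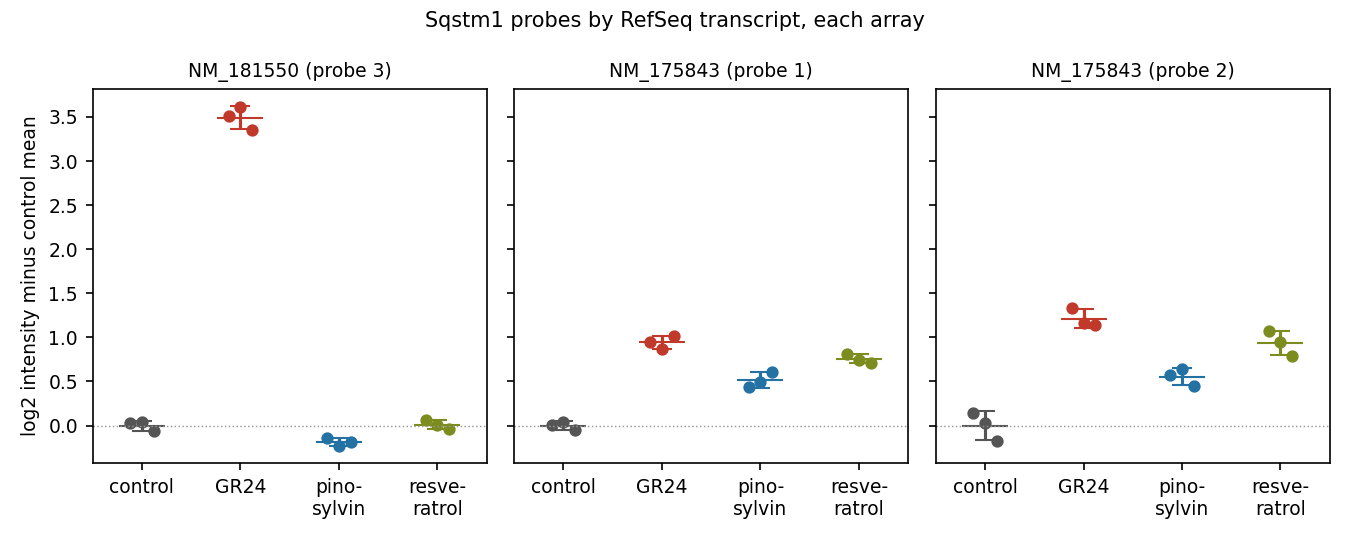
Log2 intensity of the 3 Sqstm1 probes on each of the 12 arrays (points), less the control mean of the probe, by treatment; the wide dash and bars are the mean and SD of 3 arrays. The NM_181550 probe rose by 3.49 with GR24 and changed by -0.19 and 0.0081 with pinosylvin and resveratrol, while the NM_175843 probes rose with all 3 compounds.

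A difference between probes within an array does not depend on the scaling between arrays. The NM_181550 probe minus the mean of the NM_175843 probes was -2.08, -2.03 and -1.98 in control, 0.34, 0.56 and 0.24 with GR24, -2.67, -2.83 and -2.75 with pinosylvin, and -2.91, -2.87 and -2.82 with resveratrol. Values with GR24 were above control, both stilbenes were below control without overlap with it, and the 2 stilbene groups overlapped. The zero of this scale has no meaning, since the probes differ in brightness, and only its change between groups is read. The mean rose by 2.41 from control to GR24, from -2.03 ± 0.0493 to 0.38 ± 0.164 (SD, n = 3), as a description. It fell by 0.72 with pinosylvin and fell by 0.84 with resveratrol. In exact permutation tests, two-sided, each of these 2 changes had p 0.1, the smallest that 3 against 3 arrays can give, and 0.15 after adjustment over the 3 tested contrasts. Pinosylvin minus resveratrol was 0.12, with p 0.2 by the same exact test and 0.2 adjusted. Within each replicate number the pinosylvin array was above the resveratrol array, a pairing that these exact tests did not use. The changes were -0.70 and -0.84 on slide 1 and -0.77 and -0.84 on slide 2 for pinosylvin and resveratrol. A difference within an array shows unequal change, never that 1 of the transcripts did not change.

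Among the 9 other genes, Nbr1 and Optn encode cargo receptors like p62. The brighter Nbr1 probe, probe 1, read 3.42, 3.32 and 3.34 in control and 3.76, 3.78 and 3.62 with GR24. The GR24 arrays lay above control, and the change was 0.36 on this probe and 0.50 on probe 2. With pinosylvin the 2 probes changed by 0.13 and 0.24, and with resveratrol by 0.13 on each, none past the threshold. With the replicate block probe 2 passed with pinosylvin, at an adjusted p of 0.0233, in a range of 0.0181 to 0.516 over 26 alternatives.

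The 3 Optn probes did not move together. Probe 2 read 2.28, 2.15 and 2.30 in control, 1.33, 1.40 and 1.38 with GR24, 2.39, 2.41 and 2.46 with pinosylvin, and 2.06, 2.12 and 2.15 with resveratrol. The GR24 arrays were the lowest, the pinosylvin arrays the highest, and no groups overlapped. It fell by 0.87 with GR24 (SE 0.0611), while the GR24 changes of probes 1 and 3 were -0.069 and 0.088 and overlapped control. The stilbenes differed from each other on Optn probes 1 and 2: pinosylvin minus resveratrol was 0.50 (SE 0.0910, adjusted p 0.00453) and 0.31 (SE 0.0611, adjusted p 0.00777), higher with pinosylvin on all 3 arrays. Both kept that call in all 26 alternatives. Probe 3 differed by 0.26 (95% interval -0.029 to 0.54, adjusted p 0.228), and with the replicate block by an adjusted p of 0.0395, in a range of 0.0283 to 0.512.

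Against control, the Optn calls depended on the setting. Pinosylvin minus control was 0.28 on probe 1 (adjusted p 0.0624, block 0.0424) and 0.17 on probe 2 (adjusted p 0.0821, block 0.0360). Over 26 alternatives these ran from 0.0329 to 0.258 and from 0.0264 to 0.285. Probe 1 also passed without resveratrol replicate 1 (0.0340) and without control replicate 2 (0.0459). Resveratrol minus control was -0.22 on probe 1 (adjusted p 0.127), and without resveratrol replicate 1 it was -0.32 with an adjusted p of 0.0381.

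Map1lc3b and Gabarapl1 encode members of the ATG8 family, which are joined to lipid on the growing membrane and bind cargo receptors. Gabarapl1 read 5.68, 5.77 and 5.44 in control, 6.39, 6.41 and 6.27 with GR24, 6.15, 6.18 and 6.07 with pinosylvin, and 6.19, 6.04 and 5.96 with resveratrol. All 9 treated arrays were above all control arrays, and the pinosylvin and resveratrol arrays overlapped. The change was 0.73 with GR24 (SE 0.0950, 1.66-fold). It was 0.50 with pinosylvin (SE 0.0950, adjusted p 0.00484), past the threshold in all 26 alternatives, and 0.44 with resveratrol (SE 0.0950, adjusted p 0.0104), past it in all but 1, the fit on the 6 arrays compared (0.0607). Between the stilbenes it differed by 0.068, with a 95% interval of -0.14 to 0.28.

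The 4 Map1lc3b probes carry the same accession and fell into 2 pairs with GR24. Probes 2 and 4 were higher than control on all 3 arrays, by 0.33 (SE 0.0593) and 0.36 (SE 0.104). Probe 2 read 4.93, 4.99 and 4.86 in control and 5.26, 5.29 and 5.21 with GR24. The changes of probes 1 and 3 were -0.023 and 0.021, within the spread of control, and their sign varied with the setting. No Map1lc3b probe passed the threshold with either stilbene: the changes lay between 0.042 and 0.19 with pinosylvin and between -0.14 and 0.11 with resveratrol. Probe 2 differed between the stilbenes by 0.18 (adjusted p 0.0727, block 0.0350), in a range of 0.0201 to 0.214.

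Ulk1 encodes the kinase that starts autophagosome formation. It read 4.25, 4.25 and 4.10 in control, 4.78, 4.84 and 4.62 with GR24, 4.56, 4.54 and 4.43 with pinosylvin, and 4.51, 4.45 and 4.33 with resveratrol. Every treated array was above every control array, and the stilbene groups overlapped. The change was 0.54 with GR24 (SE 0.0826), 0.31 with pinosylvin (SE 0.0826, adjusted p 0.0283) and 0.23 with resveratrol (SE 0.0826, adjusted p 0.0930). The pinosylvin call was lost without control replicate 1 (adjusted p 0.0531), control replicate 3 (0.0927), pinosylvin replicate 1 (0.0951) or pinosylvin replicate 2 (0.0930). It was also lost with normexp and the percentile (0.0504), no filter on dim probes (0.104) or only the 6 arrays compared (0.0708). The resveratrol change passed with the replicate block, at an adjusted p of 0.00608, and in 6 further alternatives, in a range of 0.00360 to 0.251. Whether the changes with the stilbenes differ is bounded by the direct difference of 0.084, with a 95% interval of -0.10 to 0.27.

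Becn1 encodes beclin 1, a subunit of the lipid kinase complex that acts after the ULK1 kinase. It read 3.26, 3.19 and 3.15 in control and 3.00, 2.98 and 2.91 with GR24. With GR24 all arrays were below control without overlap, a change of -0.24 (SE 0.0790), and the stilbene changes were 0.035 and 0.0073 for pinosylvin and resveratrol. Wipi1 encodes a protein that binds the lipid made by that kinase. It read 1.42, 1.27 and 1.15 in control, 0.92, 0.88 and 0.88 with GR24, 1.63, 1.68 and 1.38 with pinosylvin, and 1.23, 1.33 and 1.16 with resveratrol. The GR24 arrays were the lowest and the control, pinosylvin and resveratrol arrays were not all apart, as pinosylvin replicate 3 lay within the control range.

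Wipi1 changed by -0.39 with GR24 (SE 0.0949), 0.28 with pinosylvin (adjusted p 0.0712) and -0.043 with resveratrol (adjusted p 0.849). The pinosylvin change passed with the replicate block (adjusted p 0.0189) and without pinosylvin replicate 3 (0.0245), in a range of 0.0123 to 0.227 over 26 alternatives. Pinosylvin minus resveratrol was 0.32 (SE 0.0949, adjusted p 0.0464), and this call was lost in 14 of 26 alternatives. Without GR24 replicates 1, 2 and 3 the adjusted p was 0.0692, 0.0639 and 0.0584, and without control replicate 2 it was 0.0609. Without pinosylvin replicates 1 and 2 it was 0.134 and 0.164, and without resveratrol replicates 1, 2 and 3 it was 0.107, 0.0655 and 0.142. It was 0.108 with normexp and the percentile, 0.0651 with normexp and quantile, 0.0834 in the deposited series table, 0.138 with no filter on dim probes and 0.103 with only the 6 arrays compared.

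Tfeb encodes a transcription factor that turns on lysosomal and autophagy genes. It read -0.35, -0.25 and -0.58 in control and 0.040, 0.046 and -0.0094 with GR24. It read -0.50, -0.38 and -0.65 with pinosylvin and -0.48, -0.55 and -0.60 with resveratrol. The GR24 arrays were above all 9 others, and the other 3 groups overlapped. The change was 0.42 with GR24 (SE 0.0945), -0.11 with pinosylvin (95% interval -0.32 to 0.096) and -0.15 with resveratrol (95% interval -0.36 to 0.062).

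Lamp2 encodes a protein of the lysosomal membrane. Its probe 1 read 4.40, 4.39 and 4.29 in control and 4.73, 4.86 and 4.56 with GR24. The GR24 arrays were above control on both probes, by 0.36 (SE 0.101) and 0.38 (SE 0.105). With pinosylvin the probes changed by 0.16 and 0.19 and with resveratrol by 0.084 and 0.10, none past the threshold.

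Counted over all 19 probes, 12 were higher and 3 lower with GR24, at the threshold that 57.1% of all tested probes passed in either direction. Nothing is read from this count, since the genes were chosen with this contrast in view. With pinosylvin 4 probes were higher and 0 lower by limma (7 higher and 1 lower at an unadjusted p under 0.05, beside 17.0% and 12.6% of all tested probes), and 21.1% of the member probes passed beside 16.6% of all tested probes. The 4 were Sqstm1 probes 1 and 2, Gabarapl1 and Ulk1. With the replicate block 8 were higher and 1 lower, beside 28.6% of all tested probes. With resveratrol 3 were higher and 0 lower (4 higher and 2 lower unadjusted, beside 15.2% and 14.1%), and 15.8% passed beside 17.0% of all tested probes. The 3 were Sqstm1 probes 1 and 2 and Gabarapl1, and the share was at the background. With the replicate block 4 were higher, beside 27.9% of all tested probes. Without resveratrol replicate 1, 1 probe was lower, Optn probe 1. In pinosylvin minus resveratrol 3 were higher and 2 lower, 26.3% beside 14.5% of all tested probes. The 3 were Optn probes 1 and 2 and Wipi1 and the 2 were Sqstm1 probes 1 and 2, so probes of the same gene count apart. These counts were 5 and 3 with the replicate block, beside 26.0% of all tested probes. The count of 2 lower was 1 without control replicate 1 or 2, GR24 replicate 1 or 2, pinosylvin replicate 3 or resveratrol replicate 3, and 0 without pinosylvin replicate 1 or 2 or resveratrol replicate 1 or 2. The 14 probes not past the threshold differed between the stilbenes by -0.19 to 0.26, with 95% intervals that ran from -0.36 to 0.54, which does not show that the stilbenes act alike. The contrasts against control share the 3 control arrays.

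**Figure D2:**
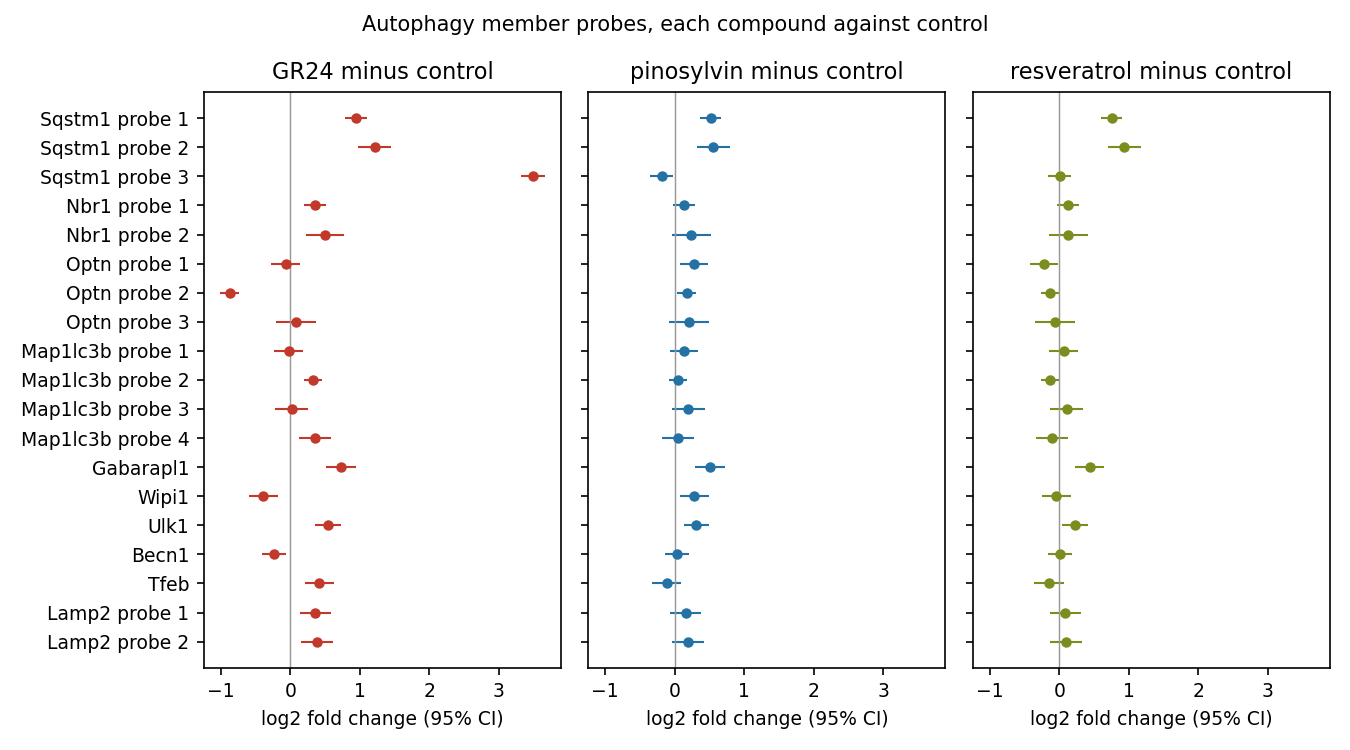
Log2 fold change against control of each member probe with GR24, pinosylvin and resveratrol (points), with 95% confidence intervals from the limma fit (bars). With GR24 the changes ran from -0.87 for Optn probe 2 to 3.49 for Sqstm1 probe 3 (NM_181550), and with resveratrol from -0.22 for Optn probe 1 to 0.94 for Sqstm1 probe 2.

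The genes closest to the NM_181550 probe were ranked by the root mean square difference of their values relative to control over the 12 arrays, among 9722 named genes. The nearest was Vgf, which encodes a secreted neuropeptide precursor, at 0.146. It read -3.84, -3.89 and -3.94 in control, -0.33, -0.28 and -0.41 with GR24, -4.10, -4.09 and -4.51 with pinosylvin, and -3.73, -3.75 and -3.83 with resveratrol. Values with GR24 were far above the other 9 arrays and the pinosylvin arrays were the lowest. A second Vgf probe of the same accession was well above background on 0 of the 12 arrays and was not tested. Next were Rell2 at 0.380, Angptl6 at 0.416, Cd68 at 0.533 and Ptgr1 at 0.565. The changes with GR24 were 3.55 for Vgf, 2.81 for Rell2, 2.74 for Angptl6, 2.67 for Cd68 and 3.39 for Ptgr1, and 2.05 on the other Angptl6 probe. In the same order of genes, the changes with pinosylvin were -0.35, 0.11, -0.064, 0.32 and 0.33. Those with resveratrol were 0.12, -0.075, 0.23, 0.15 and 0.98, beside 0.0081 for the NM_181550 probe. All these changes apart from that of the other Angptl6 probe entered the ranking. Among the member probes, the nearest was Sqstm1 probe 2 at 1.29 and the others lay at up to 2.19.

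The partners of p62 were Keap1, Nfe2l2 (NRF2), Prkci (an atypical protein kinase C), Traf6 (a ubiquitin ligase) and Tbk1 (a kinase of cargo receptors). Prkcz was not tested, since it was not well above background in any whole group. Keap1 read -0.62, -0.58 and -0.44 in control, 0.68, 0.74 and 0.71 with GR24, -0.33, -0.28 and -0.23 with pinosylvin, and 0.087, 0.20 and 0.17 with resveratrol. The 4 groups did not overlap, in the order control, pinosylvin, resveratrol and GR24 seen on the NM_175843 probes. Its change was 1.25 with GR24 (SE 0.0664), given without a test since these genes were listed with earlier results of the contrast known, 0.70 with resveratrol (adjusted p 8.12e-05) and 0.27 with pinosylvin (adjusted p 0.0197). Pinosylvin minus resveratrol was -0.43 (SE 0.0664, adjusted p 0.00200). The pinosylvin call against control was lost without control replicates 1 and 2 (adjusted p 0.0778 and 0.0578) and without pinosylvin replicates 2 and 3 (0.0606 and 0.0616). It was also lost in the deposited series table (0.0504), with no filter on dim probes (0.0918) and with only the 6 arrays compared (0.10).

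With GR24 the change was positive for all 5 tested partners, as a description: 1.02 for Prkci (SE 0.0704), 0.59 for Nfe2l2 (SE 0.114), 0.55 for Traf6 (SE 0.0953) and 0.49 for Tbk1 (SE 0.153), beside Keap1. With resveratrol Prkci was higher by 0.30 (adjusted p 0.0146), a call lost without resveratrol replicate 1 (0.0603), with no filter on dim probes (0.0654), with only the 6 arrays compared (0.0711) and on slide 1 only (0.0667), and pinosylvin minus resveratrol was -0.43 for Prkci (adjusted p 0.00256).

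The members were read against a wider list of 103 genes of autophagy and the lysosome that holds none of them. The list was chosen with earlier results of these data known, so its calls with GR24 are a description. It had a tested probe for 94 genes, and Pik3r4, Rubcn, Atg2b, Atg4b, Calcoco2, Vps41, Epg5, Gla and Sgsh had no probe. With GR24 55 of the 94 were higher and 10 lower, which is 58.5% and 10.6%, beside 36.1% and 26.7% of all 10741 tested genes. The median log2 fold change was 0.29 in the list and 0.078 in all tested genes, and 0.28 and 0.31 within slides 1 and 2. With pinosylvin 18 were higher and 0 lower (37 and 1 at an unadjusted p under 0.05, beside 17.3% and 14.9% of all tested genes at that p). By adjusted p this is 19.1% higher beside 8.59% and 9.77% of all tested genes higher and lower. The pinosylvin count was 11 with no filter on dim probes, 10 with only the 6 arrays compared and 36 with the replicate block, where the share of all tested genes that were higher was 17.1%. With resveratrol 13 were higher and 1 lower, 13.8% and 1.06%, beside 8.63% and 10.3%. They were 5 and 0 with no filter, the count higher was 5 with only the 6 arrays compared, and with the replicate block they were 27 and 3, beside 15.8% and 15.4% of all tested genes. The count of 13 was 7 without control replicate 1 or 3 or resveratrol replicate 1 and 8 without resveratrol replicate 2, and the count of 1 was 2 without control replicate 3. The medians were 0.14 with pinosylvin and 0.14 with resveratrol, beside 0.040 and 0.019 in all tested genes.

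Between compounds, GR24 minus pinosylvin had 39 list genes higher and 16 lower, beside 34.7% and 27.1% of all tested genes, and 48 and 11 in the deposited series table. GR24 minus resveratrol had 34 higher and 14 lower, beside 31.6% and 25.1%. With the 75th percentile taken over spots, an alternative chosen after seeing the data, these were 53 and 7, and over all tested probes 8707 and 4875 in place of 6662 and 5811. That scaling moved the median of all probes in this contrast by 0.11. The count of 14 was 8 without resveratrol replicate 2 and 9 without GR24 replicate 3. Pinosylvin minus resveratrol had 6 higher and 2 lower, beside 8.13% and 8.26% of all tested genes, and 10 and 6 of the 94 with the replicate block, beside 14.29% and 14.05%, so that both were under the share of all tested genes. By scaling these counts were 8 and 7 with quantile normalization, 6 and 7 with normexp and quantile, 5 and 3 with normexp and the percentile, and 7 and 5 with the percentile over probes above background on all 12 arrays. The 6 were Ykt6, Ctsl, Gusb, Atp6v0d1, Fnip2 and Hexa and the 2 were Tmem41b and Mitf, all 8 named after their values were seen. Ykt6, Ctsl and Gusb passed in all 26 alternatives. The Atp6v0d1 call was lost without control replicates 1, 2 and 3 (adjusted p 0.0695, 0.0605 and 0.0563), GR24 replicates 1, 2 and 3 (0.0738, 0.0609 and 0.0526), pinosylvin replicates 1, 2 and 3 (0.0892, 0.173 and 0.0601) and resveratrol replicates 1 and 3 (0.111 and 0.161). The Fnip2 call was lost without control replicate 1 (0.0605), GR24 replicates 1 and 2 (0.0646 and 0.0517), pinosylvin replicates 1, 2 and 3 (0.0582, 0.0666 and 0.123) and resveratrol replicates 2 and 3 (0.137 and 0.134). That of Hexa was lost without pinosylvin replicates 1 and 2 (0.0845 and 0.105) and resveratrol replicates 2 and 3 (0.102 and 0.0978). The Tmem41b call was lost without control replicates 1, 2 and 3 (adjusted p 0.0643, 0.0546 and 0.0560), GR24 replicate 1 (0.0705), pinosylvin replicates 1, 2 and 3 (0.0881, 0.129 and 0.105) and resveratrol replicates 1, 2 and 3 (0.0866, 0.145 and 0.0978). The Mitf call was lost without GR24 replicates 1 and 2 (adjusted p 0.0517 and 0.0560), pinosylvin replicates 2 and 3 (0.0982 and 0.123) and resveratrol replicates 1, 2 and 3 (0.0673, 0.145 and 0.0524). With no filter on dim probes and with only the 6 arrays compared, all 5 of these calls were lost, and on slide 1 only all but that of Hexa. In the deposited series table those of Atp6v0d1 and Tmem41b were lost, and with either normexp version that of Atp6v0d1. The difference for Ctsl, a lysosomal protease, was 0.66 (SE 0.0733, adjusted p 0.000274). The count of 6 was 3 without pinosylvin replicate 1 or 2. The count of 2 was 1 without any 1 control replicate, GR24 replicate 2 or resveratrol replicate 3, and 0 without GR24 replicate 1, pinosylvin replicate 2 or 3, or resveratrol replicate 1 or 2.

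By role, the counts with GR24 are read beside the 36.1% of all tested genes that were higher and the 26.7% that were lower. The initiation complex of Ulk1 had 2 of 4 further genes higher with GR24, Atg101 and Rb1cc1, while Atg13 and Ulk2 did not pass but did with the replicate block. The lipid kinase complex of Becn1 had 3 of 5 higher, Pik3c3, Atg14 and Ambra1, while Uvrag and Nrbf2 did not pass. So Becn1 was lower with GR24 while 3 genes for its partners were higher. Membrane growth, the role of Wipi1, had 5 of 8 higher and 1 lower, Wdr45b, and 7 higher with the replicate block. The conjugation machinery had 5 of 10 higher and 1 lower, and the ATG8 family had all 3 further genes higher, Gabarap by 0.20, Gabarapl2 by 0.23 and Map1lc3a by 0.28. The Gabarap call was lost without control replicates 1, 2 and 3 (adjusted p 0.131, 0.0715 and 0.0834), GR24 replicates 1 and 2 (0.0538 and 0.188), pinosylvin replicates 1, 2 and 3 (0.0636, 0.0634 and 0.0509) and resveratrol replicates 1 and 3 (0.0589 and 0.0606). That of Gabarapl2 was lost without control replicates 1 and 3 (0.0773 and 0.0955) and GR24 replicates 1 and 3 (0.0864 and 0.0854). Both were also lost with no filter on dim probes and on slide 1 only, and that of Gabarap with only the 6 arrays compared. The cargo receptors had 6 of 14 higher and 2 lower and the fusion machinery 4 of 11 higher, which is 42.9% and 36.4% higher and near the share of all genes. Transcriptional and nutrient control, the role of Tfeb, had 10 of 12 higher and 1 lower, Mtor. The lysosome, the role of Lamp2, had 17 of 27 higher and 5 lower with GR24. With the replicate block the lysosome had 20 higher and 6 lower, the fusion machinery 5 higher and the cargo receptors 3 lower, beside 41.1% and 30.7% of all tested genes, and the counts of the other roles apart from initiation and membrane growth were unchanged. With pinosylvin 9 of the 27 lysosomal genes were higher, 33.3% beside 8.59% of all tested genes, and they were 9 of the 18 higher genes of the list. With the replicate block these were 15 of 27 and 15 of 36, beside 17.1% of all tested genes. The genes named in this paragraph were chosen after their values were seen.

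The largest increases with GR24 were those of Wipi2 by 1.66 (SE 0.153, adjusted p 5.95e-06), Atg4c by 1.22 (SE 0.177, adjusted p 0.00016) and Atg2a by 1.11 (SE 0.0777, adjusted p 7.82e-07), and Vmp1 also passed 2-fold, at 1.04 (adjusted p 2.09e-06). Adjusted p with GR24 are given here as a description, since the list was chosen with earlier results of these data known. Wipi2 encodes a close relative of Wipi1. It read 0.088, 0.22 and -0.23 in control and 1.76, 1.76 and 1.54 with GR24. All 3 GR24 arrays were above control, where those of Wipi1 were all below it. ATG2A carries lipid to the growing membrane, VMP1 acts at its contact with the endoplasmic reticulum, and ATG4C is a protease that processes the ATG8 proteins. The change of Atg4c ran from 0.59 to 1.37 over the 26 alternatives, past the threshold in each. Its 1 probe was dim, with mean log2 intensities of -3.95 in control and -2.73 with GR24, though well above background on all 12 arrays. The largest decreases were those of Atg10 by -0.65 (adjusted p 9.03e-05), Hexa by -0.56 (adjusted p 0.000877) and Ccpg1 by -0.42 (adjusted p 0.000154), whose other probe changed by 0.17 and did not pass. The other Atg10 probe was too dim on each array to be tested.

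With pinosylvin the largest increases were those of Stbd1 by 0.74 (adjusted p 0.000554), Gaa by 0.67 (adjusted p 0.0106) and Fnip2 by 0.56 (adjusted p 0.00452). The other Fnip2 probes changed by 0.98 (adjusted p 0.00455) and 0.31 (adjusted p 0.0776). With resveratrol Stbd1 was higher by 0.70 (adjusted p 0.000868) and Vmp1 by 0.49 (adjusted p 0.00263), and the gene that was lower was Gusb, by -0.30 (adjusted p 0.0114, and 0.0573 with no filter on dim probes). Other Vmp1 probes changed by 0.92 (adjusted p 0.00258) and 0.32 (adjusted p 0.0644). STBD1 and GAA both handle glycogen, as its receptor on the autophagosome and the lysosomal enzyme that breaks it down, and GUSB is a lysosomal glycosidase. Stbd1 changed by -0.17 with GR24 (adjusted p 0.174) and by 0.74 and 0.70 with the stilbenes.

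**Figure D3:**
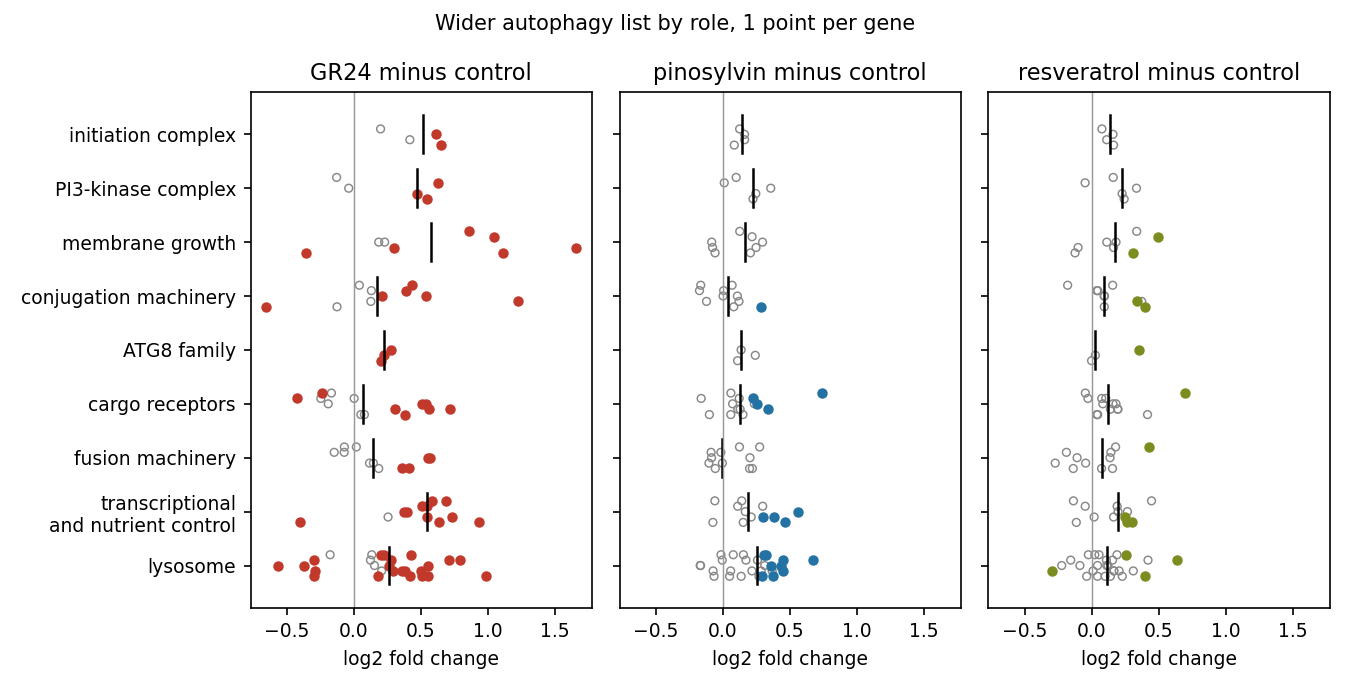
Log2 fold change against control of the 94 wider-list genes by role with GR24, pinosylvin and resveratrol; filled points passed the limma threshold, open points did not, and vertical bars are role medians. The medians for transcriptional and nutrient control were 0.54, 0.19 and 0.19, and those for the lysosome were 0.26, 0.26 and 0.11.

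Promoter windows of 300 bases, 250 before and 50 after the start, were read from RefSeq on build GRCr8, and 9 of 10 members matched (Becn1 had no entry). The start read was not always at the outer end of the gene. For Nbr1, Map1lc3b, Wipi1 and Tfeb the 250 bases before it lay wholly within the span of the gene. For Optn and Lamp2 they did so in part, and no other start of these genes was read. Of 3 motifs searched on both strands, TGANNNNGC, the core of the antioxidant response element that NRF2 binds, was in 5 of 9 member windows, beside 40.5% of all 33469 windows. CACGTG, the core of the motif that TFEB binds, was in 0 of 9, beside 6.42% of windows. The CLEAR palindrome, which is CACGTG with GT before it and AC after it, was in 0 of 9, beside 0.233%. In the wider list 75 of 94 genes matched, and TGANNNNGC was in 39, CACGTG in 16 and the palindrome in 2, which is 52.0%, 21.3% and 2.67%. Counted by gene in the same way, the shares of all 27457 genes were 42.5%, 7.08% and 0.28%. A match is a description of the letters in the window.

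The upstream 250 bases are shown for Sqstm1, whose NM_181550 probe changed the most, for Ulk1 and Lamp2, which were higher with GR24, and for Wipi1, which was lower with GR24. Capitals mark TGANNNNGC or its reverse complement where it lies wholly upstream of the start. Sqstm1 holds none of the 3 motifs in its window, and Ulk1, Lamp2 and Wipi1 hold TGANNNNGC at -67, -19 and -90. Whether a match has any part in the changes was not tested. Lamp2 has a further match after the start and Wipi1 a further match across it. The stretch of Wipi1 lies wholly within the span of its gene, and that of Lamp2 in part. The stretches are chr10:35037751-35038000 (minus strand) for Sqstm1, chr12:51511242-51511491 (plus strand) for Ulk1, chrX:122087674-122087923 (minus strand) for Lamp2 and chr10:95079294-95079543 (minus strand) for Wipi1.
Sqstm1: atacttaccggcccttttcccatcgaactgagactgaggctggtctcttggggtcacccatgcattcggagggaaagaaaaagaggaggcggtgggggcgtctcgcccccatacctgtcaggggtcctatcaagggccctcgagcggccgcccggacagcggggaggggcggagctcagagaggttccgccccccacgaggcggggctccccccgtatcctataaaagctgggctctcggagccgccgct
Ulk1: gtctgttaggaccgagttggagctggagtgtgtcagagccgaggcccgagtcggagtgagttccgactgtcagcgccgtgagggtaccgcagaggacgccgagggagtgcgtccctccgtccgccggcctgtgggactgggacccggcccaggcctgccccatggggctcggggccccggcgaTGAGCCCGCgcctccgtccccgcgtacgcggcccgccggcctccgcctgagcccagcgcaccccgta
Lamp2: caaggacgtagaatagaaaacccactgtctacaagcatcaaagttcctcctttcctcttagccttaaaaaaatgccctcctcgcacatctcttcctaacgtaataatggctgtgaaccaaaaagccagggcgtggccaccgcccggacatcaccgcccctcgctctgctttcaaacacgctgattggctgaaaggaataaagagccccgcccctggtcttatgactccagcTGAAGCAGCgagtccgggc
Wipi1: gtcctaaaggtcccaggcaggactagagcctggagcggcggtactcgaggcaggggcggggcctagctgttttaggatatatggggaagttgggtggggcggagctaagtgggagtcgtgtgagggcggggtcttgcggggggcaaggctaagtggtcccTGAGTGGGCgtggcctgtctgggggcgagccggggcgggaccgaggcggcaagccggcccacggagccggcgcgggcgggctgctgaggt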

How the data were processed

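Arrays of 3 cultures per group were compared. Per the labels and file headers, the authors scanned each array with Agilent Feature Extraction 12.0.0.7, and the deposited scanner files hold spot intensity, background subtracted and not normalized between arrays. The deposited table of the whole series holds log2 values of 25848 probes whose normalization is not stated (correlation with the median signal of the same array at least 0.999), and was an alternative only.

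The log2 of the processed signal was averaged over the spots of a probe, without outlier spots, and the 75th percentile of the array over probes was subtracted (R 4.3.3, with version 1.17.8 of data.table). An earlier run took that percentile over spots. The version over probes was taken after both had been run, and the version over spots became an alternative chosen after seeing the data. Of 45598 probes 24279 were tested. The scanner had to mark a share of at least 0.5 of the spots of a tested probe as well above background, on every array of some group. RefSeq accessions gave symbols through a GRCr8 gene table, and the brightest probe over 12 arrays stood for a listed gene. limma 3.58.1 (lmFit, eBayes, a mean per group over 12 arrays) gave differences, intervals and Benjamini-Hochberg adjusted p over all tested probes, with a threshold of 0.05. The procedure was tested on data simulated for pinosylvin minus control, with independent noise on each array. Of 200 probes raised by 1 on the log2 scale, 72% passed the threshold, with 6 false calls. The simulation did not hold the correlation within replicate numbers that the data have. The Sqstm1 transcript difference had an exact permutation test.

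Replicate numbers paired across groups: residuals correlated by 0.19 to 0.74 within a number, and 10 of 12 arrays correlated best with their own. The correlations were 0.19 to 0.47 within replicates 1 and 2, which share a slide, and 0.64 to 0.74 within replicate 3. Replicate 3 was alone on its slide, so there slide and experiment cannot be told apart. The members and lists were chosen with earlier results of these data known, and members and p62 partners carry no p in contrasts with GR24. For the same reason the adjusted p printed for wider-list genes with GR24 are a description. Named genes are the members, the 3 largest increases and decreases of the wider list per contrast against control past the threshold without overlap between arrays, genes past it with 2-fold change, genes not past it where 5 or fewer are counted, p62 partners, and the 5 genes closest to the Sqstm1 transcript with the larger GR24 response. The last were taken among genes well above background on each of the 12 arrays, and leaving out LOC and RGD symbols there was decided with the data in hand.

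Alternatives were quantile normalization, normexp (offset 50, on median signals because the files hold no mean signal), the deposited table, other filters and percentiles, only the arrays compared, replicate or slide blocks, slide 1 alone, trend and robust variances, outlier spots kept, all probes of a gene, and each array left out. Figures were drawn with Python 3.11.15, pandas 2.3.3 and matplotlib 3.10.9.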

Additional observations from a re-analysis of the deposited data

How the results depend on the processing

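Each value was recomputed under every alternative that applies to it. Of the member results with a test, 5 lost the call in 41 settings and 10 gained one in 40, and 14 changed sign in 39 settings, to values of at most 0.053 in size on the log2 scale and at adjusted p of at least 0.769. The within-array Sqstm1 transcript difference kept its sign in each alternative run for it. Among values with GR24, which have no test, 27 moved by more than the spread between replicates in 62 settings. Against control the GR24 changes of the members kept their sign in every alternative except those of Optn probe 1 and Map1lc3b probes 1 and 3.

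For the wider list, the genes higher with pinosylvin (18) were 11 with no filter on dim probes, 10 with only the 6 arrays compared, 36 with the replicate block and 36 with the slide as a block. Those lower (0) were 1 with normexp and quantile. The genes higher with resveratrol (13) were 5, 5, 27 and 26 under the same 4 alternatives, and 7 to 13 with single arrays left out. Those lower (1) were 2 with quantile normalization, either other percentile, normexp and quantile, the deposited series table, the slide as a block, slide 1 only, trend and robust variances, or the mean over all tested probes of a gene. They were 0 with no filter and 3 with the replicate block, and 1 to 2 with single arrays left out.

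In GR24 minus resveratrol, the list genes higher (34) were 53 and those lower (14) were 7 with the percentile over spots, an alternative chosen after seeing the data. Those lower were 9 with no filter, and 8 to 14 with single arrays left out. In pinosylvin minus resveratrol, those higher (6) were 3 with no filter, 3 with only the 6 arrays compared, 10 with the replicate block and 13 with the slide as a block, and 3 to 7 with single arrays left out. Those lower (2) were 7 with quantile normalization, 5 with the percentile over probes above background on all 12 arrays, 7 with normexp and quantile, 0 with no filter, 0 with only the 6 arrays, 6 with either block, 0 with slide 1 only and 4 with the mean over all tested probes of a gene, and 0 to 2 with single arrays left out.

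The member probes higher with pinosylvin (4) were 8 with the replicate block and 8 with the slide as a block. Those lower (0) were 1 with quantile normalization, the percentile over probes above background on all 12 arrays, normexp and quantile, the replicate block or the slide as a block. Those lower with resveratrol (0) were 0 to 1 with single arrays left out. In pinosylvin minus resveratrol, those higher (3) were 5 with either block, and those lower (2) were 1 with the percentile over spots, 0 with no filter and 0 with only the 6 arrays compared, and 0 to 2 with single arrays left out. Among the member probes the replicate block changed no call other than those given in the report.

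Signs changed in results that did not pass the threshold. Sqstm1 probe 3, resveratrol minus control, was -0.0066 with quantile normalization, -0.0061 with the percentile over probes above background on all 12 arrays, -0.0028 with the percentile over spots and -0.0031 with normexp and quantile. Becn1, resveratrol minus control, was -0.0025, -0.0068, -0.0035 and -0.0058 under those 4, and -0.0019 with normexp and the percentile. In pinosylvin minus resveratrol, Nbr1 probe 1 was -0.014 with quantile normalization, -0.0017 with the percentile over probes above background on all 12 arrays, -0.017 with normexp and the percentile and -0.021 with normexp and quantile. Map1lc3b probe 1 was -0.027 with quantile normalization, -0.037 with normexp and quantile and -0.044 with the deposited series table. Gabarapl1 was -0.034, -0.013 and -0.023 under the same 3, and Map1lc3b probe 3 was -0.0062 with normexp and quantile and -0.013 with the deposited series table.

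With single arrays left out, resveratrol minus control ran from -0.024 to 0.034 for Sqstm1 probe 3, from -0.11 to 0.015 for Optn probe 3, from -0.0075 to 0.15 for Map1lc3b probe 1, from -0.0064 to 0.20 for Map1lc3b probe 3, from -0.11 to 0.028 for Wipi1 and from -0.053 to 0.077 for Becn1. Pinosylvin minus control ran from -0.025 to 0.089 for Map1lc3b probe 4 and from -0.0062 to 0.079 for Becn1. Pinosylvin minus resveratrol ran from -0.033 to 0.049 for Nbr1 probe 1, from -0.042 to 0.088 for Becn1 and from -0.031 to 0.10 for Tfeb. The cause of these changes was not tested.

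The values have limits. A group has 3 arrays from 1 batch of cells, at 1 dose and 1 time. Slide 2, with 1 array per group, gives values without a test. Probe sequences were not examined, so which other transcripts a probe measures was not tested. RNA levels say nothing of autophagic flux or of p62 protein. The contrasts against control share their control arrays, and the myotube markers moved with every compound, in ways whose part in the results was not tested. All member probes were well above background on all 12 arrays.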
